A study of Mus musculus with 6 samples.

Results

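Immediate early response genes were followed across the ileum of mice that differed in microbiota and in age around weaning. The members were the 10 genes Egr1, Fos, Fosb, Jun, Junb, Ier2, Ier3, Atf3, Dusp1 and Klf4, found as every probe whose gene symbol in the deposited tables was one of these names. They had 12 probes among the 26423 on the array, since Ier2 and Junb had 2 each, and all 10 were among the 12196 genes tested. All probes matched under the current symbol.

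Total RNA of the ileum, the last stretch of the small intestine, was amplified, labelled with Cy5 and read in 1 colour on Phalanx Mouse OneArray slides, which carry spotted probes. All mice were C57BL/6J. The 5 groups were SPF postweaned (n = 1), germ-free postweaned (n = 1), humanized gnotobiotic preweaned (n = 1), SPF preweaned (n = 1) and germ-free preweaned (n = 2); the plots write GF for germ-free, HUM for humanized and pre and post for before and after weaning. SPF mice carried a conventional microbiota and were housed free of specific pathogens, germ-free mice lived in isolators without microbes, and gnotobiotic mice carry a defined community, whose make-up the sources used here do not give. The design text gives an age of 3 weeks for the gnotobiotic mouse; the sources used here give neither the sex of the mice nor whether RNA was pooled from several. No sample was treated to provoke an acute response, as far as the labels say, so the values are levels in the tissue as it was collected.

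Immediate early genes are transcribed within minutes of a signal, from factors that are already present in the cell and without new protein synthesis. Growth factors, cytokines, mechanical strain and stress reach them through MAP kinases, which act on SRF with its ternary complex partners and on CREB and ATF proteins at the promoter. Their mRNAs are short-lived, so their level in a tissue reflects its last stretch before RNA was fixed. In the intestine they are known from epithelial renewal and injury, and from the handling of tissue, to which they respond as well.

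Promoters of 4 members are shown because 3 of them, Fosb, Dusp1 and Atf3, had the widest gap between samples described further on and Fos, a close relative of Fosb, did not. Each line gives the 200 bases before the start of the gene, 5′ to 3′ on the gene's own strand, from RefSeq sequences of GRCm38.p6. Fosb lies at chr7:19310046-19310245 (minus strand), Dusp1 at chr17:26508473-26508672 (minus strand), Atf3 at chr1:191183334-191183533 (minus strand) and Fos at chr12:85473690-85473889 (plus strand). Capitals mark TGACG on either strand, the core of the site that CREB and ATF proteins bind.
Fosb: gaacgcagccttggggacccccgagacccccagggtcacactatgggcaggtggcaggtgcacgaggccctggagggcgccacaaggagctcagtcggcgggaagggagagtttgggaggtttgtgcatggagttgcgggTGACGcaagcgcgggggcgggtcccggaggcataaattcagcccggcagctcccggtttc
Dusp1: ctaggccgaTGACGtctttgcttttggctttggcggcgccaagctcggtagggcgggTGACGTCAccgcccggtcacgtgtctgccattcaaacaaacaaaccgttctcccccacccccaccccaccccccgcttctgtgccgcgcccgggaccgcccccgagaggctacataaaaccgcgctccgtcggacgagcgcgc
Atf3: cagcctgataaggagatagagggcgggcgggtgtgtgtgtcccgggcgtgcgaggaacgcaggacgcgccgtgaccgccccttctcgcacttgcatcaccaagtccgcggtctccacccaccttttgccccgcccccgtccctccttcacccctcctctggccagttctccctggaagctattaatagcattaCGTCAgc
Fos: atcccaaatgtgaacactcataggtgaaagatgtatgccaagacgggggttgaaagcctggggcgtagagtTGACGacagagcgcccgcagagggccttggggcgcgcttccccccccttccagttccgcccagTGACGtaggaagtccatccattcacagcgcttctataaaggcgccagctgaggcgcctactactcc

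Promoter windows from 250 bases before to 50 bases after the start were searched for 8 members, without Egr1 and Ier2. TGACG, read on both strands, was found in 6 of the 8, namely Fos, Fosb, Junb, Atf3, Klf4 and Dusp1, against 20.8% of 32851 windows of the same length over all genes. Counted from the start of the gene, the copies began at -60 in Fosb, -7 in Atf3 and -129 and -66 in Fos. The full palindrome TGACGTCA, which holds TGACG on both strands, was found in Dusp1 alone (1 of 8, against 1.79% of windows), beginning at -143. GCGGGGGCG, the sequence that Egr1 binds, was found in Fosb and Klf4 (2 of 8, against 2.91%). TGACTCA, the AP-1 site of Fos and Jun dimers, was found in 0 of 8 windows (5.2% of all), and the CArG box that SRF binds in 0 of 8 (1.63% of all). These are matches of letters in the window only. For motifs as rare as the last 2, 0 of 8 is the usual count, and sites outside the window were not searched. Their absence here therefore says nothing about whether the genes have such sites.

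There were 3 arrays per sample and 6, in 2 column sets, for germ-free preweaned 1; nothing says whether those sets hold RNA of the same mouse. An array detected 29.8% to 50.3% of its probes, and the SD of a member's log2 level between arrays of a sample ranged from 0.00334 to 0.548 (median 0.103). With so few arrays per sample, their number limits how precise a level is. Epcam, an epithelial surface protein, lay between 15.33 and 15.79 in all 6 samples, while the ileal bile acid binding protein Fabp6 was not above background in the humanized sample (6.76, against 8.02 to 14.22 elsewhere). The mean log2 level of 6 markers of suckling enterocytes was 9.54 in the humanized sample, 13.82 in SPF preweaned and 13.69 and 9.56 in germ-free preweaned 1 and 2, so samples with the same preweaned label did not share this feature of the unweaned gut.

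The samples also fell into 2 sets by probe signal, each made of whole groups. With the members left out, 45 probes were bright in SPF postweaned, germ-free postweaned and SPF preweaned ileum and undetected on every array of the other 3 samples, and 33 probes showed the opposite. The first 3 samples are called set A here, and the humanized and both germ-free preweaned samples set B; no label or heading names such a set, and what sets them apart was not tested. Array numbers in the column headings run from 1 to 21 through set A and germ-free preweaned 1 and start again in the humanized sample and germ-free preweaned 2, so numbering and set do not coincide. The deposited gene symbols came in 3 versions, and these do separate the sets. All of set A shared 1 version, the humanized sample and germ-free preweaned 2 shared another, and germ-free preweaned 1 had its own. How the versions relate to the signals was not tested. Of the comparisons the design implies, 3 lie within a set (SPF and germ-free postweaned ileum, SPF ileum after and before weaning, humanized and germ-free preweaned ileum). In the other 3 and in the interaction, a difference between groups is also one between sets, and these cannot be told apart.

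Levels below are log2 of the quantile-normalized intensity plus an offset of 50, and are compared only within a probe. Among the subunits of AP-1, the dimeric factor that Fos and Jun proteins form, Fosb and Fos behaved differently. Fosb, which pairs with Jun proteins, had 11.56 in SPF postweaned, 11.69 in germ-free postweaned, 7.67 in humanized, 11.99 in SPF preweaned and 6.48 and 8.53 in germ-free preweaned 1 and 2. The 3 samples of set A were all high and those of set B all low, and none of the 6 arrays of germ-free preweaned 1 detected the probe. Detection elsewhere was on every array except 1 of SPF postweaned.

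Fos, the founding member of the family, had 14.17 in SPF postweaned, 13.90 in germ-free postweaned, 13.20 in humanized, 13.67 in SPF preweaned and 10.47 and 13.98 in germ-free preweaned 1 and 2. Here 5 of the 6 samples lay within about 1 log2 unit and germ-free preweaned 1 stood alone at the bottom. Jun, the partner that also forms dimers with itself, had 11.58 in SPF postweaned, 11.02 in germ-free postweaned, 10.52 in humanized, 11.52 in SPF preweaned and 11.48 and 10.84 in germ-free preweaned 1 and 2. Its samples all lay between 10.52 and 11.58, and SPF postweaned, SPF preweaned and germ-free preweaned 1 led it together.

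Junb, a Jun protein that is a weaker activator than Jun in many settings, was read by a pair of probes. Its brighter probe had 12.62 in SPF postweaned, 12.06 in germ-free postweaned, 11.17 in humanized, 11.53 in SPF preweaned and 9.71 and 11.58 in germ-free preweaned 1 and 2. Its dimmer probe had 12.25 in SPF postweaned, 11.04 in germ-free postweaned, 10.32 in humanized, 10.29 in SPF preweaned and 8.56 and 10.64 in germ-free preweaned 1 and 2. Both put SPF postweaned at the top and germ-free preweaned 1 at the bottom, and they differ in the order of the humanized and SPF preweaned samples, which lay 0.04 apart by the dimmer probe and -0.36 by the brighter (humanized minus SPF preweaned).

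Of the other transcription factors, Egr1, a zinc finger protein induced by growth factors and stretch, had 13.84 in SPF postweaned, 13.83 in germ-free postweaned, 10.81 in humanized, 14.82 in SPF preweaned and 9.75 and 11.40 in germ-free preweaned 1 and 2. SPF preweaned was the highest and the sets did not overlap. Atf3, a stress-induced repressor of the ATF family, had 10.37 in SPF postweaned, 10.75 in germ-free postweaned, 6.35 in humanized, 10.21 in SPF preweaned and 6.29 and 7.12 in germ-free preweaned 1 and 2. No array of set B detected Atf3, so its level there is only an upper bound, whereas every array of set A detected it except 1 of SPF preweaned.

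Klf4, which marks differentiating cells and is needed for normal goblet cells of the mouse colon, had 13.55 in SPF postweaned, 13.32 in germ-free postweaned, 12.41 in humanized, 12.46 in SPF preweaned and 11.23 and 13.01 in germ-free preweaned 1 and 2. Both postweaned samples led and the preweaned ones overlapped across the sets.

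The signal regulators split in the same way. Dusp1, a phosphatase that switches MAP kinases off, had 12.20 in SPF postweaned, 12.15 in germ-free postweaned, 8.58 in humanized, 12.04 in SPF preweaned and 7.85 and 8.88 in germ-free preweaned 1 and 2. Within set A its whole range was 0.15, and all of set B lay far below. Ier3, a regulator of cell survival, had 8.13 in SPF postweaned, 8.62 in germ-free postweaned, 8.22 in humanized, 8.40 in SPF preweaned and 7.69 and 8.08 in germ-free preweaned 1 and 2. Ier3 was near the detection limit (detected on 5 of 6 and 2 of 3 arrays in the germ-free preweaned pair), its samples overlapped, and its 3 arrays in germ-free postweaned had an SD of 0.548.

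Ier2, a nuclear protein of little-known function, was the member whose probes disagreed. Its brighter probe had 13.52 in SPF postweaned, 12.87 in germ-free postweaned, 11.30 in humanized, 13.20 in SPF preweaned and 10.82 and 11.29 in germ-free preweaned 1 and 2. Its dimmer probe had 10.70 in SPF postweaned, 8.65 in germ-free postweaned, 8.88 in humanized, 9.38 in SPF preweaned and 8.86 and 8.61 in germ-free preweaned 1 and 2. The sets were apart by the first probe and overlapped by the second, on which SPF postweaned alone stood out. Where in the transcript either probe lies was not analysed here.

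**Figure D1:**
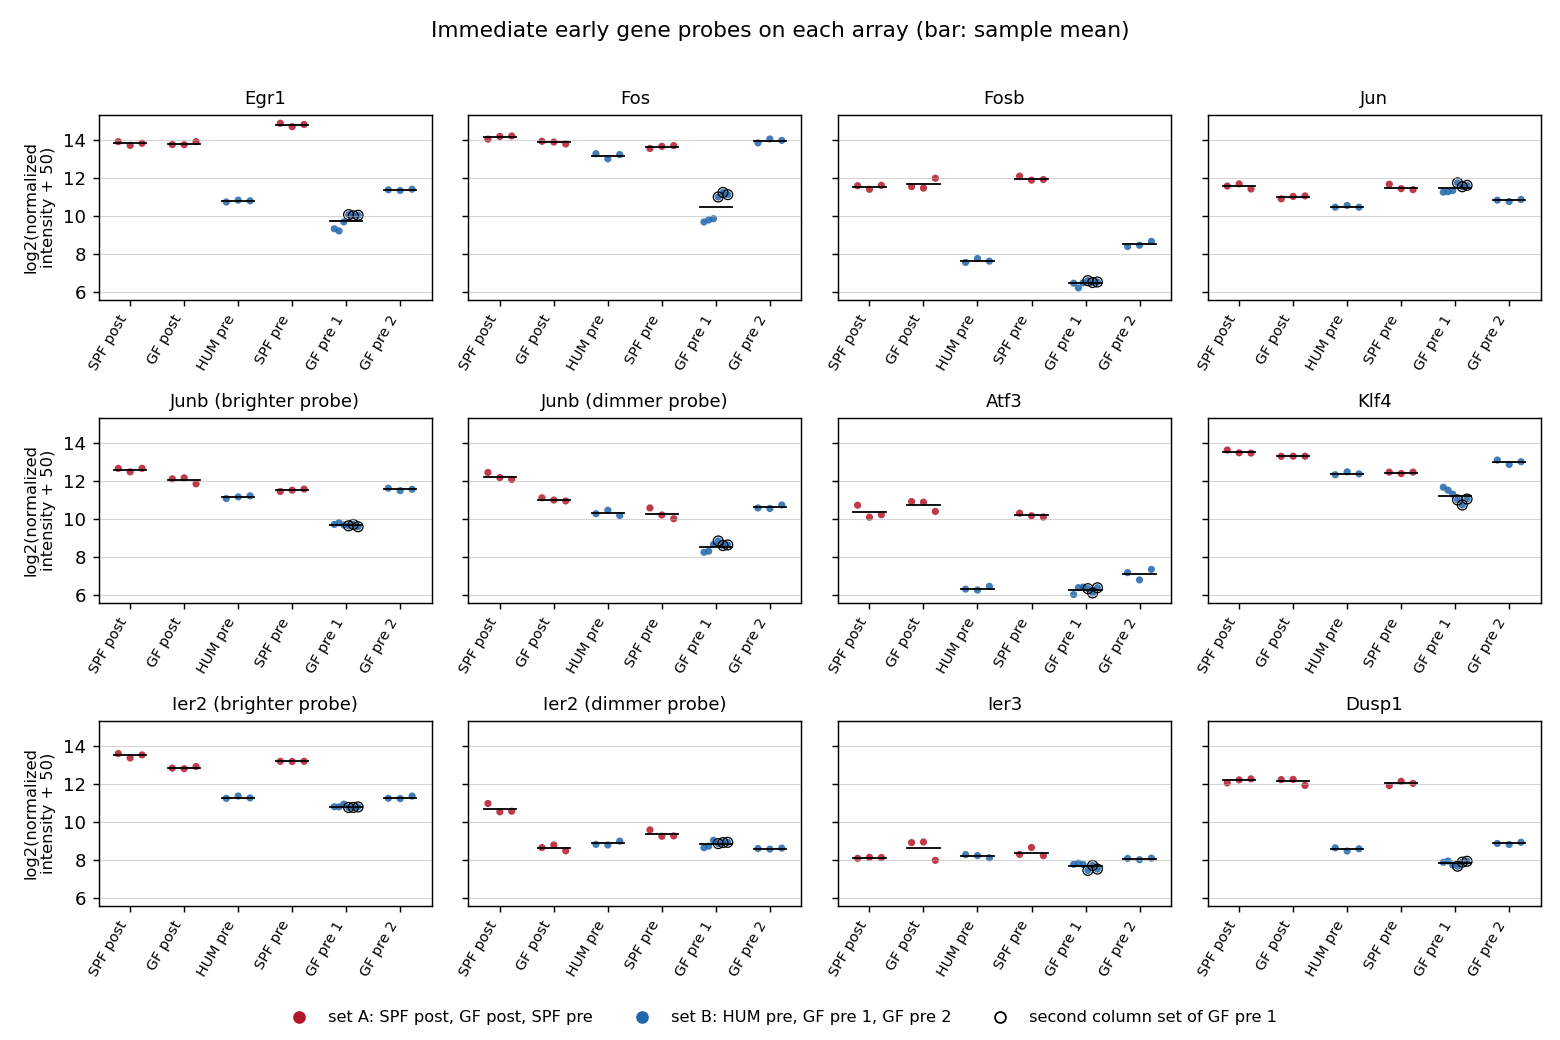
Log2 level (normalized intensity plus 50) of each of the 12 member probes on each array, with samples along the x axis; points are arrays, bars are sample means, red is sample set A, blue is sample set B and ringed points are the second column set of germ-free preweaned 1. Fosb, Egr1, Atf3, Dusp1 and the brighter Ier2 probe are high in all 3 red samples and low in all 3 blue ones, while Jun, Klf4, Ier3 and the dimmer Ier2 probe overlap.

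For 5 of the 10 members, every sample of set A lay 2-fold or more above every sample of set B, against 1.66% of all 12196 tested genes. The narrowest distance, the lowest sample of set A minus the highest of set B, was 3.16 for Dusp1, 3.03 for Fosb, 2.43 for Egr1 and 1.56 for Ier2. For Atf3 it was 3.09 in measured signal and at least 2.25 against the detection limit, since no array of set B detected the probe. For the other 5 members that distance was below 0, from -0.55 for Klf4 to -0.05 for Junb. It was -0.23 for the dimmer Ier2 probe, so Ier2 counts among the 5 only by its brighter probe. No member was placed the other way round (0 of 10, against 1.55% of tested genes).

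**Figure D2:**
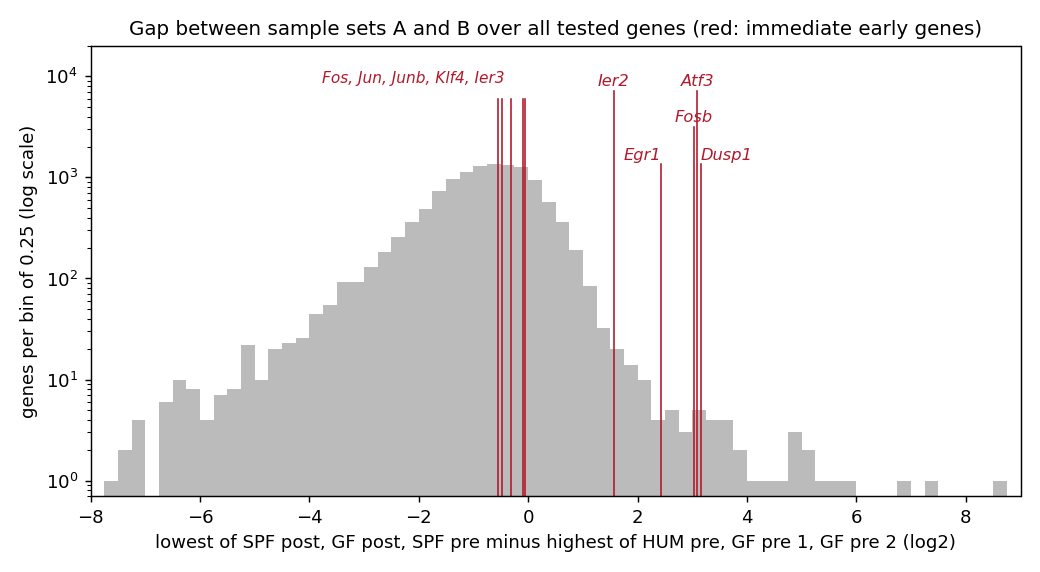
Histogram over the 12196 tested genes of the lowest log2 level in sample set A minus the highest in sample set B, with the number of genes per bin on a log axis; red lines mark the 10 members, with Atf3 at its measured signal. Dusp1, Atf3, Fosb, Egr1 and Ier2 lie at 1.56 or more, and the other 5 members lie below 0.

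Setting SPF postweaned beside germ-free postweaned ileum asks how the microbiota relates to these genes in the weaned gut. The levels of the immediate early genes with and without microbes lay close together by their representing probes. In all, 0 of 10 members were higher by 2-fold in SPF ileum and 0 were lower, where 9.02% of tested genes were that much higher and 6.37% lower. The median difference was 0.14 (all genes -0.02), with members between -0.49 for Ier3 and 0.65 for Ier2. Egr1 differed by 0.01 ± 1.01 (SE) and Dusp1 by 0.05 ± 0.72, so the intervals leave room for a difference of 2-fold in either direction. The dimmer probes read otherwise: Ier2 was 4.14-fold and Junb 2.32-fold higher in SPF ileum by them. With each array scaled by its 75th percentile the median of members was -0.38 and that of all genes -0.16.

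Weaning in SPF mice, also within set A, went with differences under 2-fold in 8 of 10 members. Junb was 2.13-fold higher in postweaned ileum (log2 difference 1.09 ± 1.11 SE) and Klf4 2.12-fold (1.09 ± 1.07), and these were the 2 of 10 members at 2-fold, against 10.5% of tested genes higher and 8.64% lower. By its dimmer probe Junb was 3.91-fold higher, and the dimmer Ier2 probe 2.51-fold. Egr1 lay on the other side, at -0.98 ± 1.01. The median of the members was 0.15 (all genes -0.04). Fosb, Jun, Atf3, Ier3 and Dusp1 ranged from -0.43 to 0.15.

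The humanized sample was compared with the germ-free preweaned pair within set B. It lay between the 2 germ-free samples for 6 of the 9 members detected in any of the 3, namely Egr1, Fos, Fosb, Junb, Klf4 and Dusp1, as 47.2% of all tested genes did, detected there or not. Atf3 was undetected in all 3 and has no order. By the pair's mean 0 of 10 members were 2-fold higher and 0 lower (4.16% and 2.34% of tested genes), and the median was 0.24 (all genes -0.02). The result turned on which germ-free sample stood as the control. Against replicate 1 alone 5 members were 2-fold or more higher in the humanized sample, among them Fos at 2.73 and Junb at 1.46, and against replicate 2 alone 0 were, with Fos at -0.78 and Junb at -0.41.

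Before weaning, SPF ileum was set against germ-free ileum across the sets. SPF ileum held more of 6 of the 10 members at 2-fold, where 11.5% of tested genes were higher and 11.1% lower, and the median was 1.79 (all genes -0.03). Fosb had 11.99 in SPF and 7.50 ± 1.45 (SD, n = 2) in germ-free ileum, 22.4-fold higher (4.49 ± 1.04 SE), with 3 of the 9 germ-free arrays detecting it. Egr1 had 14.82 in SPF and 10.57 ± 1.17 in germ-free ileum, higher by 4.25 ± 0.87. Dusp1 was 12.8-fold (3.67 ± 0.63), Atf3 at least 5.98-fold and Ier2 4.42-fold higher (2.14 ± 0.45), or 0.64 by its dimmer probe. These 5 exceeded the distance within the germ-free pair. Fos, the sixth, did not: its difference was 1.44 ± 1.70 from the pair's mean and -0.32 from replicate 2. A fold for an undetected probe is a lower bound, taken per array against the lowest detected signal, or the probe's own where that was higher.

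Weaning in germ-free mice, from set B to set A, gave 8 members at 2-fold or more higher in postweaned ileum, against 11.6% of tested genes higher and 12.7% lower, with a median of 1.74 (all genes 0.00). Fosb was 18.2-fold higher (4.19 ± 1.04 SE), Dusp1 13.7-fold (3.78 ± 0.63), Atf3 at least 8.69-fold, Egr1 9.59-fold (3.26 ± 0.87) and Ier2 3.50-fold (1.81 ± 0.45), though its dimmer probe stood at -0.08. Fos at 1.67 ± 1.70, Junb at 1.42 ± 0.96 and Klf4 at 1.20 ± 0.93 made up the 8, each with an error close to its size. Without germ-free preweaned 1 the count was 5, since Fos (-0.09), Junb (0.48) and Klf4 (0.31) then fell short of 2-fold. Jun was at -0.14 ± 0.50.

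The humanized sample against SPF preweaned ileum, across the sets, mirrored these values: 6 of 10 members were 2-fold or more lower in the humanized sample and 0 higher, where 14.6% of tested genes were lower and 15.3% higher. Egr1 was 16.1-fold lower (log2 difference -4.01 ± 1.01 SE), Atf3 at least 7.74-fold and Ier2 3.73-fold (-1.90 ± 0.52; -0.50 by its dimmer probe), and the log2 differences of Fosb and Dusp1 were -4.32 ± 1.20 and -3.46 ± 0.72. Jun was at -1.01 ± 0.57, at the edge of the count. The comparisons of the preweaned samples share the SPF preweaned or the germ-free pair, so these values are not independent of one another.

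**Figure D3:**
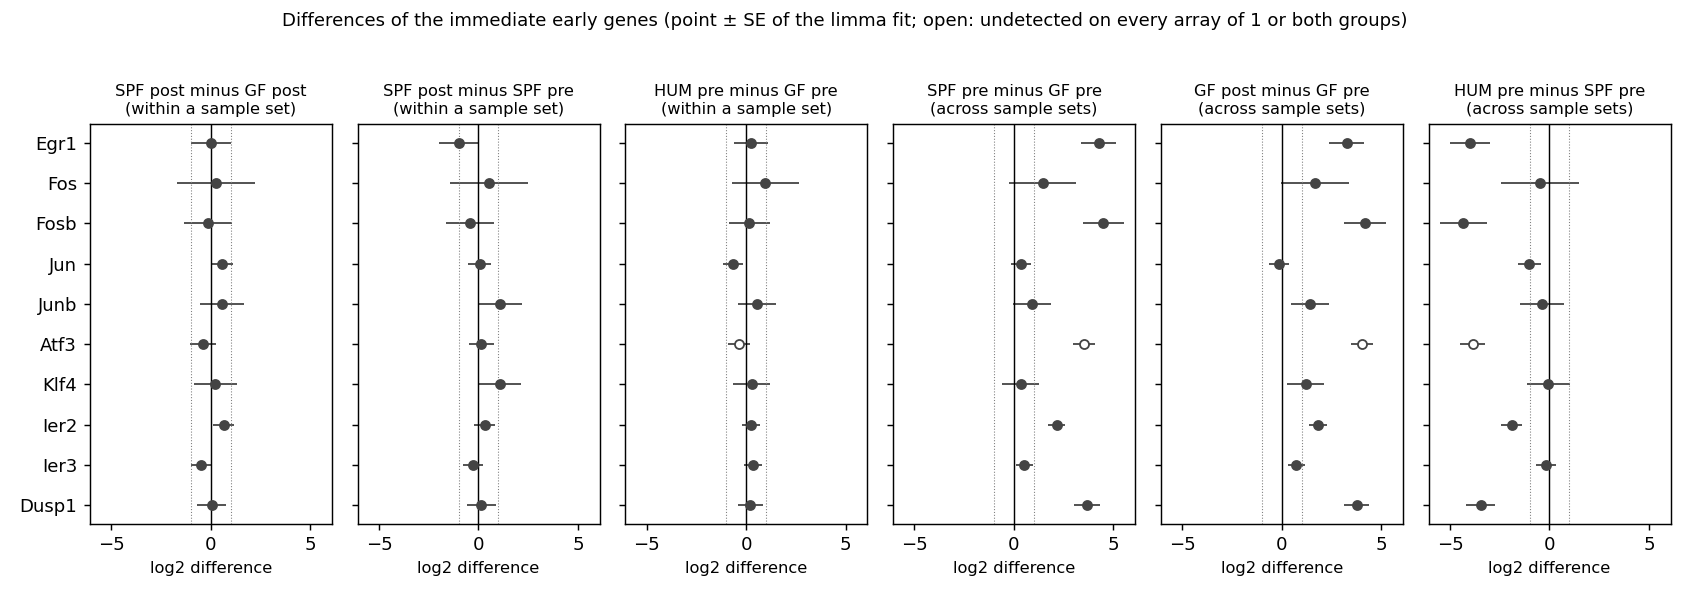
Log2 difference of each member in the 6 comparisons, first-named group minus second, as the point estimate with the standard error of the limma fit; dotted lines mark 2-fold and open symbols mark probes undetected on every array of a group. In the 3 comparisons within a set all members lie between -0.98 and 1.09, and in the 3 across sets Fosb, Egr1 and Dusp1 lie beyond 3 in size. Atf3 does so there by measured signal only, since no array of set B detected it.

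By limma no gene was called in any of the 6 comparisons (0 of 12196, members included, at an adjusted p under 0.05). All spread in the fit comes from the germ-free preweaned pair (1 residual degree of freedom), which stands in for the groups of 1 sample; whether the pair came from separate mice is not given, so the p-values reflect nothing beyond the spread of these samples, which may be technical. An unadjusted p under 0.05 was found for 521 (4.27%), 627 (5.14%) and 70 genes (0.574%) in the comparisons within a set, in the order described, and for 0 of 10 members in each. Across sets it was found for 1182 (9.69%), 927 (7.6%) and 1241 genes (10.2%), and in each for 5 of 10 members, Egr1, Fosb, Atf3, Ier2 and Dusp1. The smallest limma adjusted p of a member was 0.956 within sets and 0.484 across them. The interaction of weaning with microbiota, SPF minus germ-free, was at -1 or less for 7 of 10 members and at 1 or more for 0, against 16.9% and 17.5% of tested genes; 3 members (Egr1, Atf3 and Dusp1) and 6.32% of genes had an unadjusted p under 0.05, and the smallest limma adjusted p was 0.761.

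Between the 2 germ-free preweaned samples, the only pair that shares a group, the members also differed. In replicate 1, 6 of 10 members were 2-fold or more lower than in replicate 2 and 0 higher, against 9.92% of tested genes lower and 9.28% higher. Fos differed most, 11.4-fold, with 10.47 in replicate 1 and 13.98 in replicate 2. Fosb (-2.04), Junb (-1.87), Klf4 (-1.78), Egr1 (-1.65) and Dusp1 (-1.03) went the same way, and Jun was 0.64 higher in replicate 1. Fos was also the 1 member that differed 2-fold between the column sets of replicate 1, with 11.14 in the second set and 9.80 in the first, where 1.82% of tested genes were that much higher and 1.1% lower. This pair differed as well in the markers of suckling enterocytes given above, and in those of mature enterocytes, whose mean over 5 genes was 10.04 in replicate 1 and 13.99 in replicate 2; the part of these differences in the members' values was not tested.

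Other genes of the response were taken from lists. Of 28 further immediate early transcription factors 24 were tested, and 0 were called by limma in any comparison. In SPF against germ-free preweaned ileum 8 of them were 2-fold or more higher and 1 lower (median 0.52). Over all tested genes 11.5% were higher and 11.1% lower. Egr2, at least 1.27-fold, Irf1, 4.05-fold, and Jund, 2.73-fold, led the 8. By measured signal 3 of the 24 were 2-fold apart between the sets in every pair. Among all tested genes 1.66% were higher in set A in this way and 1.55% lower. Fosl2 (gap 1.28) and Egr2 (gap 1.04) were higher in set A, and Egr2 was above background only in SPF postweaned and SPF preweaned ileum. Nr4a1, an orphan nuclear receptor that is a classic member of the response, was placed the other way, and only the humanized sample, at 7.66, was above background. Its signal was 7.17 and 7.73 in germ-free preweaned 1 and 2 and 5.68, 5.65 and 5.65 in set A. After weaning, Nr4a2 was at least 3.61-fold, Myc at least 1.60-fold and Irf1 2.07-fold higher in SPF than in germ-free ileum. By measured signal these were the 3 of 24 at 2-fold (0 lower), against 9.02% of tested genes higher and 6.37% lower.

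Among 28 tested genes of feedback on signalling or RNA, 1 was 2-fold higher in set A in every pair, against 1.66% of tested genes. It was Zfp36, which promotes decay of mRNAs with AU-rich elements. Zfp36 had 12.96 in SPF postweaned, 12.59 in germ-free postweaned, 10.92 in humanized, 12.58 in SPF preweaned and 9.65 and 11.38 in germ-free preweaned 1 and 2. This list also differed within set A. In SPF against germ-free postweaned ileum 10 of 28 were at 2-fold or more upward and 3 downward (median 0.53). Over all tested genes 9.02% were higher there and 6.37% lower. Weaning in SPF mice had 13 higher and 1 lower (median 0.55), against 10.5% and 8.64% of tested genes. Rgs1, a regulator of G protein signalling abundant in lymphocytes, was 24.2-fold higher in SPF than in germ-free postweaned ileum and 65.0-fold higher after weaning in SPF mice, where 1 of the 3 preweaned arrays detected it. Socs3, an inhibitor of cytokine signalling, was 3.85-fold and 11.4-fold higher in these comparisons. T and NK cell markers differed alongside, with 9 of 9 at 2-fold or more in both and a summed normalized intensity of 75400 in SPF postweaned, 5740 in germ-free postweaned and 891 in SPF preweaned ileum; their part in the result was not tested. In bulk tissue, fewer cells of a type and less RNA per cell cannot be told apart.

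Of 11 tested secreted products of the response, 5 were 2-fold or more higher in the humanized sample and 0 lower against germ-free preweaned ileum (median 0.87; 4.16% and 2.34% of tested genes), with the monocyte chemokine Ccl2 at least 3.62-fold and the matrix protein Thbs1 5.28-fold higher. Against SPF preweaned ileum 5 were higher and 3 lower (15.3% and 14.6% of tested genes): Thbs1 was at least 10.2-fold higher in the humanized sample, and the growth factor gene Hbegf was 3.70-fold lower. Markers of smooth muscle (6 of 7) and endothelium (5 of 9) were also 2-fold or more higher in the humanized than in the germ-free preweaned ileum, and their part in these values was not tested. Of 19 tested upstream components of the ERK, SRF and AP-1 pathway, 0 were 2-fold apart between the sets in every pair. Among all tested genes 1.66% were higher in set A in this way and 1.55% lower, so 0 of 19 is a usual count. By any distance, all of set A lay above all of set B for 3 components and below it for 6. Over all tested genes these counts were 2271 and 2195 of 12196. No comparison had more than 2 components at 2-fold in a direction. Map2k1, a kinase that acts on ERK, was 2.99-fold higher after weaning in germ-free mice. Mapk9, itself a JNK, was 3.47-fold lower there (detected on 2 of 3 postweaned arrays). Braf, a kinase upstream of ERK, was 2.93-fold higher in SPF than in germ-free preweaned ileum, where 3 of 9 arrays detected it.

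Several other measures followed the sets as the 5 members did. Of 11 tested heat shock genes, 2 were 2-fold higher in set A in every pair of samples, against 1.66% of all tested genes. Hspa1a, an inducible chaperone, had 10.80 in SPF postweaned, 10.01 in germ-free postweaned, 6.86 in humanized, 11.95 in SPF preweaned and 6.96 and 6.58 in germ-free preweaned 1 and 2. Its neighbour Hspa1b had 12.04, 10.87 and 12.30 in SPF postweaned, germ-free postweaned and SPF preweaned ileum, against 8.32, 8.94 and 8.37 in humanized and germ-free preweaned 1 and 2; the copies are nearly identical, so their probes may share signal. The other 9 overlapped between the sets, so the list as a whole did not follow them. Its mean level was 9.90, 9.68 and 10.43 in SPF postweaned, germ-free postweaned and SPF preweaned ileum. In humanized and germ-free preweaned 1 and 2 it was 9.39, 9.77 and 9.07.

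Rn18s and Rn7sk, chosen after their values were seen, encode non-coding RNAs without a long poly(A) tail and followed the sets too. The probe of 18S ribosomal RNA, Rn18s, had 13.03 in SPF postweaned, 11.61 in germ-free postweaned and 14.16 in SPF preweaned ileum, against 7.51, 6.90 and 8.62 in humanized and germ-free preweaned 1 and 2. That of the 7SK RNA, Rn7sk, had 14.02, 11.43 and 13.69 in the same samples of set A, against 7.13, 7.07 and 7.61 in set B. Marker lists of fibroblasts, endothelium, myeloid cells and smooth muscle ran the opposite way in sum, though not gene by gene. Sums of T and NK cell markers overlapped (891 to 75400 in set A, 698 to 5930 in set B). Over all tested genes 1.55% were 2-fold lower in set A in every pair. The summed normalized intensity of 5 fibroblast markers was 330 to 998 in set A and 2550 to 6340 in set B, and 3 of 5 were 2-fold lower in every pair. That of 9 endothelial markers was 491 to 789 in set A and 1060 to 3560 in set B (2 of 9 lower in every pair). For 8 myeloid markers it was 606 to 2210 and 4270 to 10100 (3 of 8), and for 7 smooth muscle markers 678 to 1030 and 1130 to 9810 (0 of 7). Of the fibroblast markers 3 of 5 were above background in each sample of set A, and of the endothelial ones 2 or 3 of 9. In humanized and germ-free preweaned 1 and 2 these counts were 5, 3 and 3 for fibroblasts and 9, 3 and 5 for endothelium. The part of these RNAs and cell types in the members' values was not tested.

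**Figure D4:**
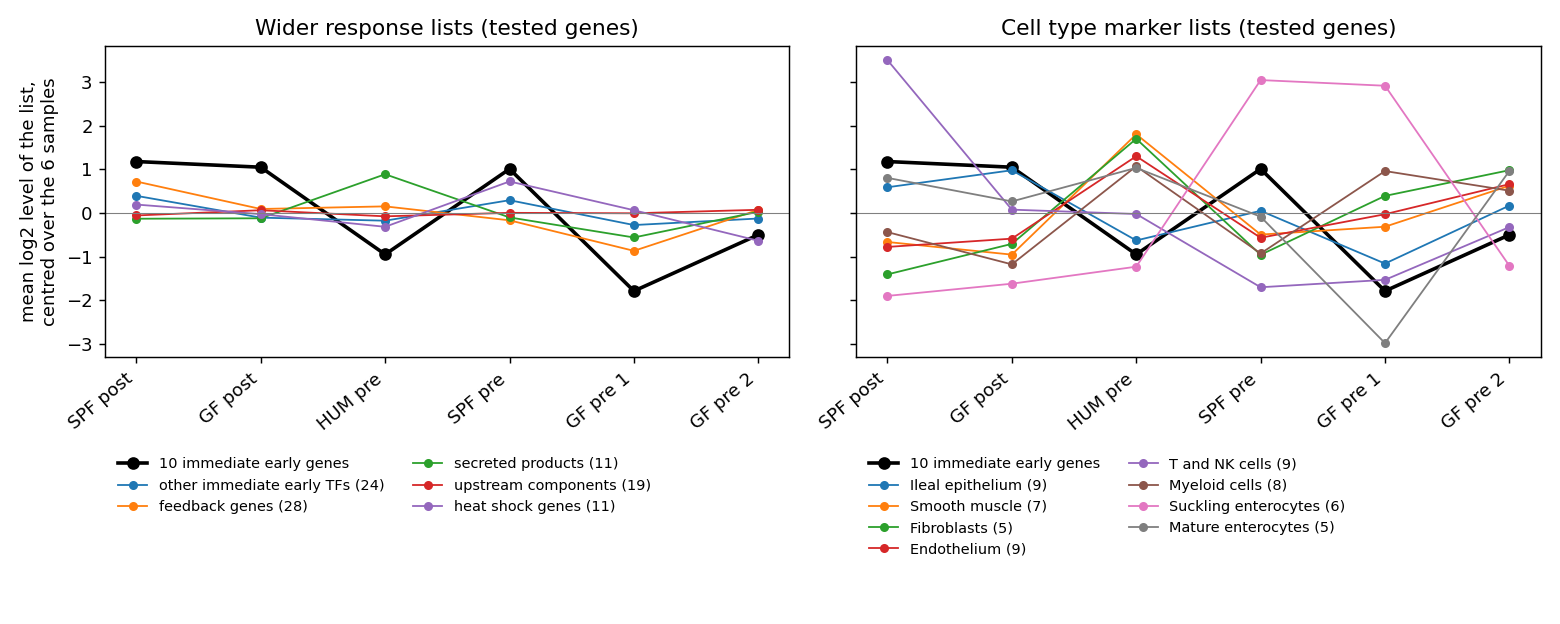
Mean log2 level of each gene list in the 6 samples, centred on the list's mean over them, for wider response lists on the left and cell type markers on the right; the black line is the mean of the 10 members. The black line is between 1.01 and 1.18 in set A (SPF postweaned, germ-free postweaned and SPF preweaned) and between -1.79 and -0.50 in set B, while the mean of the upstream components stays flat and fibroblast and endothelial markers are higher in set B.

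Ileal epithelial markers (9 tested) had mean levels of 12.98, 13.37 and 12.44 in set A and 11.76, 11.23 and 12.56 in set B, which overlap. In every pair 1 of 9 was 2-fold higher in set A, against 1.66% of tested genes. Another 1.55% of tested genes were lower in this way. Mean levels of 4 B and plasma cell markers did not overlap, with 8.17, 7.23 and 7.42 in set A and 7.10, 6.97 and 6.85 in set B. Neither did those of 2 mast cell markers, with 7.13, 7.03 and 6.22 in set A and 7.87, 7.79 and 7.30 in set B. Those of 5 markers of enteric neurons and glia overlapped, between 6.97 and 7.39. No gene of these last 3 lists was 2-fold apart in every pair.

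Members varied together only in part. Over the 6 samples 14 of the 45 pairs of members had a Pearson correlation over 0.8, 3 were below 0, and the median was 0.73; the samples of a set share whatever sets them apart, so these values describe the samples only. The genes whose levels were most like the mean of the members, among 4524 that were above background in all 6 samples and spanned 1 log2 unit or more, were Ogt (r = 0.996), Arid1a (0.994), Gm6878 (0.992), Clk4 (0.992) and Abr (0.991). Ogt had 10.68 in SPF postweaned, 10.44 in germ-free postweaned, 8.96 in humanized, 10.60 in SPF preweaned and 8.27 and 9.45 in germ-free preweaned 1 and 2, in the same order of sets as the members.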

How the data were processed

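Ileal RNA of 6 samples (2.5 µg each, integrity number of at least 8, per the labels) was read on 21 arrays. Per the file headers, the authors deposited the raw intensity of each probe on each array; some are below 0, so a background had been subtracted, and the sources used here do not name the scanner software. For every probe on every array they also deposited a p-value of detection, per the file headers. The authors' value table holds 1 intensity per sample, close to the mean of that sample's deposited raw intensities.

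Arrays were quantile-normalized with limma 3.58.1 in R 4.3.3, values below 0 were set to 0, 50 was added and log2 was taken, which understates the folds of dim genes. Arrays were averaged within column sets and column sets within samples. A probe was above background in a sample when its p-value was under 0.05 on most arrays, and tested when that held in at least 1 sample; of several tested probes, the one of highest mean stood for the gene. Symbols were updated with RefSeq (GRCm38.p6). Group means were fitted with limma (2-sided moderated tests, Benjamini-Hochberg over 12196 genes); the fit was tested on simulated data. Folds of 2 were counted as a description. All probes of the members are named, and from each wider list up to 3 genes per direction and comparison with the largest difference of 2-fold or more, save 1 that is not reported here; the 5 genes most like the members' mean were taken by correlation. The members and lists were chosen with earlier results of these data known. Alternatives changed the scaling, offset, filter, probe, column set, value table and replicates.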

Additional observations from a re-analysis of the deposited data

Results flagged for a closer look

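For 4 members the single-sample effects in 1 background ran against those in the other, whichever germ-free preweaned sample was used; the interactions cross the sample sets, and by limma none passed (adjusted p 0.761 for Egr1, Fosb and Atf3 and 0.776 for Ier3). Egr1 was at -0.98 for weaning in SPF mice and between 2.43 and 4.09 for weaning in germ-free mice, an interaction of -4.24. Fosb was at -0.43 in SPF and 3.16 to 5.21 in germ-free mice, and its difference of SPF from germ-free ileum was -0.13 after weaning and 3.46 to 5.51 before, an interaction of -4.62. Atf3 was at -0.38 for SPF against germ-free ileum after weaning and 3.09 to 3.92 before, an interaction of -3.89; no germ-free preweaned array detected its probe, so the values before weaning and the interaction are signal set against an upper bound. Ier3 was at -0.27 for weaning in SPF mice and 0.55 to 0.94 in germ-free mice, and at -0.49 for SPF against germ-free ileum after weaning and 0.33 to 0.72 before, an interaction of -1.02. The single-sample effects below 0, from -0.98 to -0.13, were each smaller than their standard error in the limma fit, so their sign is not established. Over all tested genes 17.5% had an interaction of 2-fold or more upward and 16.9% downward, which is a different criterion from opposite signs. How many tested genes met the rule of opposite signs was not counted. Whether 4 members is an unusual number therefore cannot be judged.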

How the results depend on the processing

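Of 708 recomputed differences of single members, 688 moved by less than the spread of the germ-free preweaned pair, 17 moved further and 3 differences of 2-fold changed sign. Part of the 688 was fixed by design. The column set and replicate settings cannot change comparisons without germ-free preweaned ileum. Leaving out 1 of the 2 replicates moves their mean by less than their spread. The count is therefore no measure of how robust the differences are. Differences under 2-fold in the main setting changed sign in 18 of the 708, among them 6 members in humanized against germ-free preweaned ileum without replicate 1 and 4 in SPF against germ-free postweaned ileum with 75th percentile scaling. Of the 22 differences of 2-fold, 14 stayed at 2-fold with the same sign in every setting that could be run. In SPF against germ-free postweaned ileum the members 2-fold higher numbered 1 with the mean of a gene's probes and 2 with the dimmer probes of Ier2 and Junb, an alternative chosen after seeing the data; the dimmer Ier2 probe also turned weaning in germ-free mice to -0.08. With the first column set alone 1 member was 2-fold higher in the humanized than in the germ-free preweaned ileum. Without 1 of the germ-free preweaned replicates, that count ranged from 0 to 5 and the median of members from -0.50 to 0.90. The count for SPF against germ-free preweaned ileum then ranged from 5 to 8, its median from 1.29 to 2.79 and Fos from -0.32 to 3.19; for weaning in germ-free mice the ranges were 5 to 8, 1.06 to 2.89 and, for Fos, -0.09 to 3.43. The cause was not tested. The smallest limma adjusted p of a member over the settings was 0.236 (trend and robust) to 0.788, and no setting called a gene. With only probes above background in all 6 samples, 8 members remained, without Fosb and Atf3. Without either replicate of the pair limma could not be fitted, since no residual degree of freedom is left. No paired analysis was possible because the groups compared share fewer than 2 replicate numbers. Signal over background limits Atf3, Ier3 and, in germ-free preweaned 1, Fosb.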
